A study of Homo sapiens with 6 samples.

Results

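The genes described here are 42 inflammatory cytokines, chemokines, acute-phase genes and other transcriptional targets or regulators of NF-kB, chosen by name, of 27745 genes listed in the count table. They and the gene lists used below were chosen with earlier results of these data known, so their shares beside all genes are descriptions. All 42 have a row in the table, and 39 of them were tested. RNA-seq was performed on MDA-MB-231 cells, an established triple-negative breast cancer cell line, after lentiviral infection with a short hairpin RNA (shRNA). The control cells received sh-TRC, and the other cells received sh-MIR100HG-1 or sh-MIR100HG-2, both directed against the long non-coding RNA MIR100HG. Each group has 2 biological replicates, named CTR-1 and CTR-2, KD1-1 and KD1-2, and KD2-1 and KD2-2, so p-values rest on 6 samples of 1 cell line, all of which carry a lentiviral shRNA. The total count per sample ranged from 43804736 to 64588388.

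NF-kB is a family of dimeric transcription factors that is held in the cytoplasm by IkB proteins. Signals from interleukin-1, tumor necrosis factor or Toll-like receptors run through adaptor proteins and the IkB kinase complex, which marks IkB for degradation, and NF-kB then enters the nucleus and switches on cytokines, chemokines and adhesion molecules. Among its targets are its own inhibitors, such as NFKBIA and TNFAIP3, which end the response. MDA-MB-231 cells are known for producing IL-6, CXCL8 and colony-stimulating factors without being stimulated.

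Short stretches of promoter sequence show the NF-kB motif that many of these genes share. RefSeq start sites on GRCh38.p14 were available for 31 of the 42 genes, with 39 windows in all, each running from 250 bases before to 50 bases after the start. The counts use GRCh37, so these coordinates and those of the counted genes are on different builds. The NF-kB consensus was found on either strand in 21 of the 39 windows (53.8%), which belong to 19 of the 31 genes, and in 11.3% of all 35116 windows. The AP-1 motif TGANTCA was found in 6 windows (15.4%, against 7.71% of all), the ISRE-like motif, GAAA and GAAA with NN between them, in 2 (5.13%, against 3.57%) and the TATAAA motif in 9 (23.1%, against 11.5%), and no match to one motif overlapped a match to another. CX3CL1, LIF, CXCL16, RELB, SAA1, CSF3, CCL5, CCL2, SAA2, CSF1 and C3 had no entry. The lines below give 30 bases before the start for the neutrophil-attracting CXC chemokines, whose counts are compared with each other further on, and for IL6, NFKBIA, TNIP1, NFKB2 and IL32 as a cytokine, 2 inhibitors, a subunit and a gene that differed between the shRNAs. Capitals mark the bases that matched the NF-kB consensus, on the gene's strand and 5′ to 3′.
CXCL1: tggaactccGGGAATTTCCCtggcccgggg
CXCL2: tggagctccGGGAATTTCCCtggcccggga
CXCL3: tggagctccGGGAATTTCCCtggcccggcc
CXCL5: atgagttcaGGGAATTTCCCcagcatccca
CXCL6: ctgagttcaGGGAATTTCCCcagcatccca
IL6: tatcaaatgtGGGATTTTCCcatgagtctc
IL32: ctgtactcaGGGAGTTTCCCcagccagctg
NFKBIA: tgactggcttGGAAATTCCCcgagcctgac
TNIP1: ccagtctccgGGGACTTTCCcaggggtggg
NFKB2: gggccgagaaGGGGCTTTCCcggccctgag

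The run of 11 bases in the CXCL1 line recurred in CXCL2, CXCL3, CXCL5 and CXCL6, and in 0.0769% of all windows. The CXCL1 stretch lies at chr4:73869305-73869334 on the plus strand, and its run covers bases -79 to -69 before the start. The CXCL2 stretch, at chr4:74099253-74099282 on the minus strand, differed from that of CXCL1 at 2 of 30 bases. The CXCL3 stretch, at chr4:74038748-74038777 on the minus strand, differed from that of CXCL1 at 3 bases. The IL6 stretch lies at chr7:22727117-22727146 on the plus strand. CXCL8 and ICAM1, which have a window each, held no match to these letters. A match is a description of the letters and was not tied to binding of a factor.

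The knockdown was checked first on its target. MIR100HG had 41.9 and 58.5 CPM (counts scaled to the TMM-normalised library size) in CTR-1 and CTR-2, 15.2 and 13.2 in KD1-1 and KD1-2, and 16.6 and 10.4 in KD2-1 and KD2-2. All 4 knockdown samples lay below both controls, with a log2 fold change (log2FC) of -1.86 and a standard error (SE) of 0.25 for the mean of both shRNAs. The adjusted p was 0.381 in edgeR's quasi-likelihood test, 1.2e-06 in edgeR's likelihood ratio test and 5.1e-07 in DESeq2. The markers of the line were present, with the mesenchymal gene VIM between 1607 and 2095 CPM in every sample, while the leukocyte gene PTPRC stayed between 0.12 and 0.69 CPM. These are bulk samples, in which fewer cells of a kind and less RNA per cell cannot be told apart.

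The control cells made most of these transcripts. On the RPKM scale, counts divided by gene length and library size, which allows genes to be compared, IL6 was the highest of the 42 in the control, with a mean of 212 ± 134 (SD, n = 2), and stood at rank 117 of 15372 genes tested. CXCL8, a chemokine that draws neutrophils, followed with 162 ± 104, SAA1, an acute-phase protein of serum, with 139 ± 67.0, the inhibitor TNIP1 with 126 ± 22.3 and the growth factor CSF2 with 123 ± 39.5. Neighbours among these 5 did not differ beyond the spread of the 2 controls. At the other end, IL33 had 0 counts in all 6 samples, which allows up to 3 counts a library. CXCL6 had 2 counts in KD1-1 and 0 elsewhere. CXCL5 reached an RPKM of 0.0281 in the control, and CCL2, which attracts monocytes, 0.0974.

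**Figure D1:**
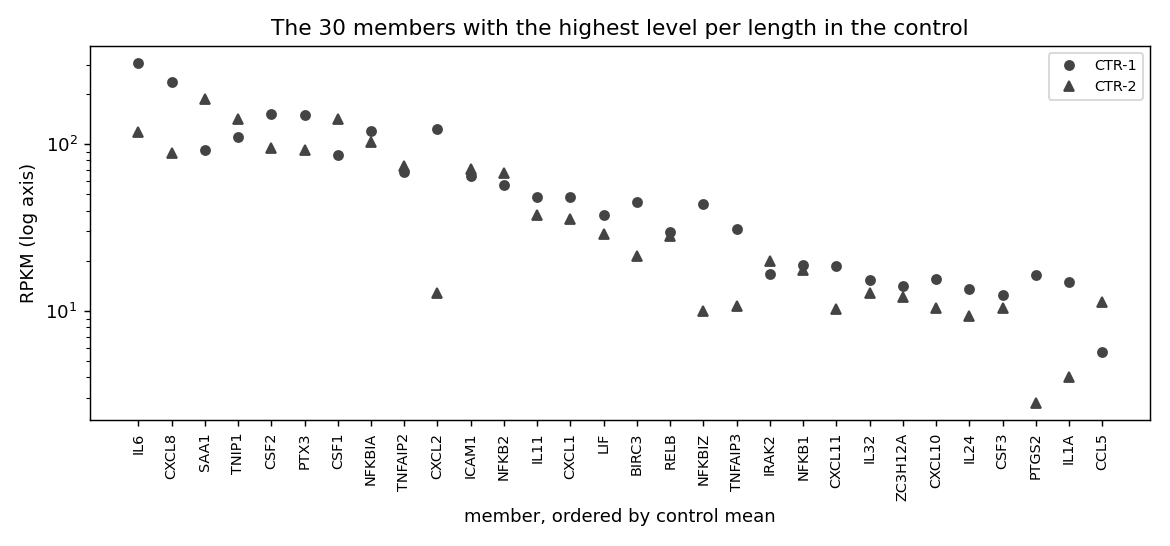
Level per gene length of the 30 members with the highest control mean, as RPKM on a log axis. Circles are CTR-1 and triangles CTR-2, and for CXCL2, NFKBIZ, PTGS2, IL1A and TNFAIP3 the circle stands well above the triangle.

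The first comparison asked what these genes did when MIR100HG was lowered, taking both shRNAs together. The direction differed from gene to gene. Chemokines of the CXCL1 group, the colony-stimulating factors CSF1 and CSF2, the inhibitors NFKBIA and ZC3H12A and the adhesion molecule ICAM1 had higher means in the knockdown samples, while IL1B, CXCL10 and IL11 had lower ones. None of these differences passed the adjusted threshold of 0.05. Of the 39 genes tested, 21 had a positive and 18 a negative log2FC, and their median of 0.05 stood beside -0.04 for all genes tested.

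In edgeR's quasi-likelihood test 0 of the 39 genes were called against control at an adjusted p of 0.05 or below, where 0% of the 15372 genes tested were called, and the lowest adjusted p among the 39 was 0.476. The likelihood ratio test and DESeq2 also called 0 of them, where they called 0.709% and 0.846% of all genes. At an unadjusted p under 0.05, 7 were higher (17.9%, against 3.23% of all genes) and 2 were lower (5.13%, against 4.44%). All 4 knockdown samples lay above both controls for 1 of the 39 (2.56%, against 8.4% of all genes), which was CXCL5, and below both for 2 (5.13%, against 9.08%), IL11 and IL1B. The balance of these counts depended on single samples: without KD2-1, 4 were higher and 7 were lower, without CTR-2, 2 were higher and 4 were lower, and without KD1-2, 3 were higher and 2 were lower. Without the filter on low counts 9 of 41 genes were called, where 1.84% of all genes were, and 12 were higher and 9 lower at an unadjusted p under 0.05.

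The shRNAs were then compared with the control separately, using the same 2 control samples, so their values stand side by side and do not replicate each other. With sh-MIR100HG-1 the acute-phase genes SAA1, SAA2, C3 and LCN2 and the chemokines CCL5, CX3CL1 and CXCL10 stood below the control, whereas with sh-MIR100HG-2 SAA1, CSF1, CSF3, CXCL1, ICAM1, ZC3H12A and IL32 stood above it. The median log2FC of the 39 genes was -0.26 for the first shRNA and 0.50 for the second, and that of all genes tested was -0.00 and -0.04. No gene was called for either shRNA in edgeR's quasi-likelihood test (0% of all genes for both), with lowest adjusted p-values among the 39 of 0.714 and 0.396.

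With sh-MIR100HG-1, 0 of the 39 were higher at an unadjusted p under 0.05 (3.1% of all genes) and 10 were lower (25.6%, against 3.77%). Both KD1 samples lay above both controls for 1 gene (20.3% of all genes) and below both for 16 (41%, against 20.2%). With sh-MIR100HG-2, 11 were higher (28.2%, against 3.71%) and 1 was lower (2.56%, against 5.15%). Both KD2 samples lay above both controls for 19 genes (48.7%, against 18.1%) and below both for 2 (5.13%, against 20.4%). The direction of the count for sh-MIR100HG-1 depended on single samples: without CTR-1 it was 6 higher and 6 lower, without KD1-1 it was 7 higher and 6 lower, and without CTR-2 it was 0 higher and 6 lower. Without the filter on low counts it was 7 higher and 11 lower. For sh-MIR100HG-2, leaving out KD2-1 gave 7 higher and 7 lower. With sh-MIR100HG-2 the likelihood ratio test called CSF1, CXCL1, ZC3H12A and ICAM1, where it called 0.787% of all genes, and DESeq2 called the same 4, where it called 1.09%. With sh-MIR100HG-1 the likelihood ratio test called 0 of the 39 (0.221% of all genes) and DESeq2 called SAA2 and C3 (0.429% of all genes). Without the filter on low counts 10 of 41 were called with sh-MIR100HG-1 (1.06% of all genes) and 12 with sh-MIR100HG-2 (2.42%).

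**Figure D2:**
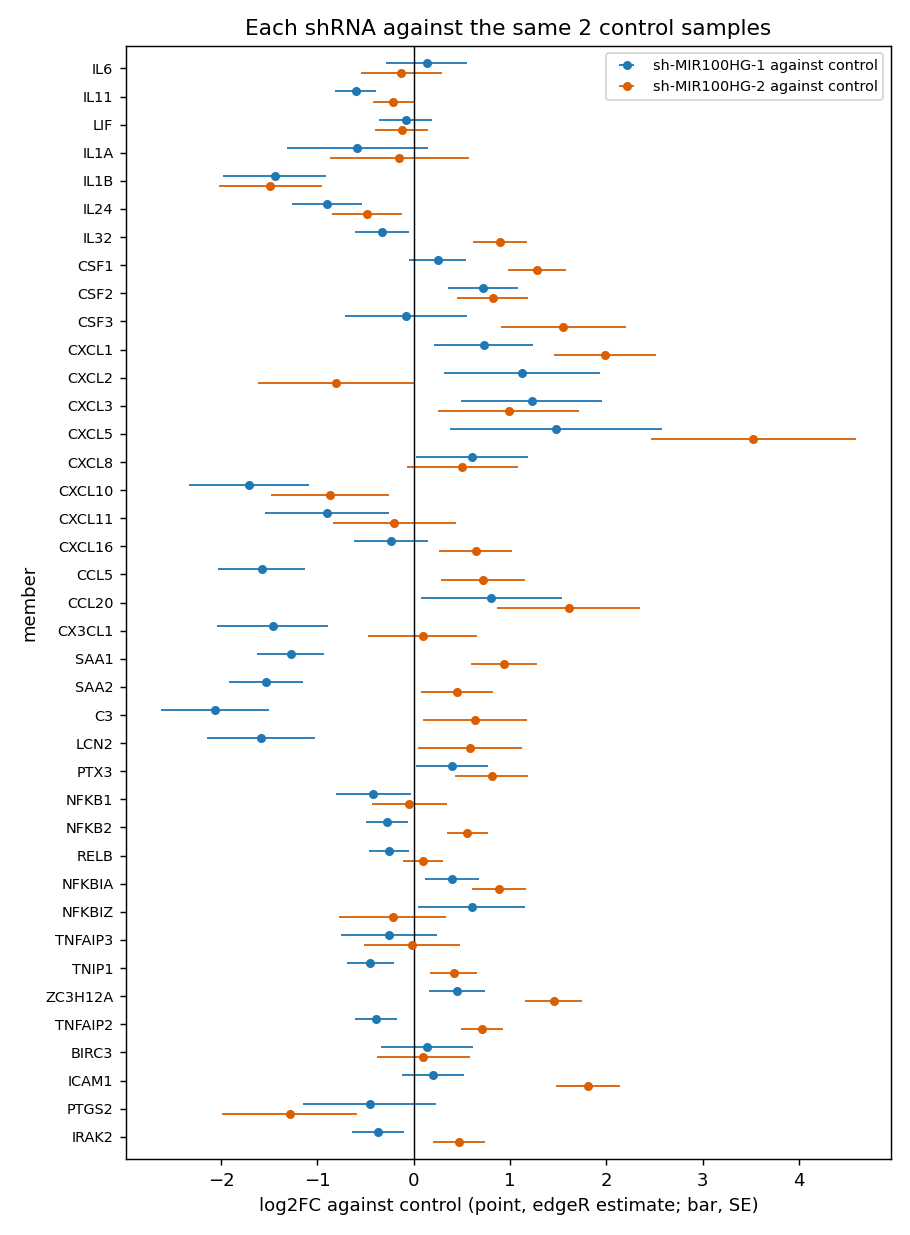
The log2FC of each of the 39 members against the same 2 control samples, in blue for sh-MIR100HG-1 and in orange for sh-MIR100HG-2, with bars of 1 SE from edgeR. Both points lie on the negative side for IL1B (-1.44 and -1.49), and they lie on opposite sides of 0 for SAA1 (-1.28 and 0.93) and CCL5 (-1.58 and 0.72).

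The shRNAs were also tested directly against each other, with sh-MIR100HG-1 as the reference; the control does not enter this difference, but it does enter the estimate of the spread behind the p-values. Of the 39 genes, 30 had a higher and 9 a lower log2FC with sh-MIR100HG-2, and their median was 0.81, beside -0.01 for all genes. At an unadjusted p under 0.05, 17 were higher (43.6%, against 3.34% of all genes) and 1, CXCL2, was lower (2.56%, against 6.12%). Both KD2 samples lay above both KD1 samples for 18 genes (46.2%, against 20.6%) and below them for 3 (7.69%, against 23.3%). Ordered by p over all 15372 genes, SAA1 was the first, and SAA2, CCL5, TNFAIP2 and ICAM1 were also among the first 10. Even so 0 of the 39 were called in edgeR's quasi-likelihood test (0% of all genes), with a lowest adjusted p of 0.509. The likelihood ratio test and DESeq2 each called 8 of them: IL32, CCL5, SAA1, SAA2, C3, LCN2, TNFAIP2 and ICAM1, where they called 0.592% and 0.67% of all genes. Without the filter on low counts 16 of 41 were called (3.18% of all genes). The median log2FC of the 39 depended on single samples. It was 0.28 without KD2-1, 0.54 without KD1-1, 0.94 without KD2-2 and 1.11 without KD1-2. Without KD1-1, 10 were higher and 1 was lower at an unadjusted p under 0.05.

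**Figure D3:**
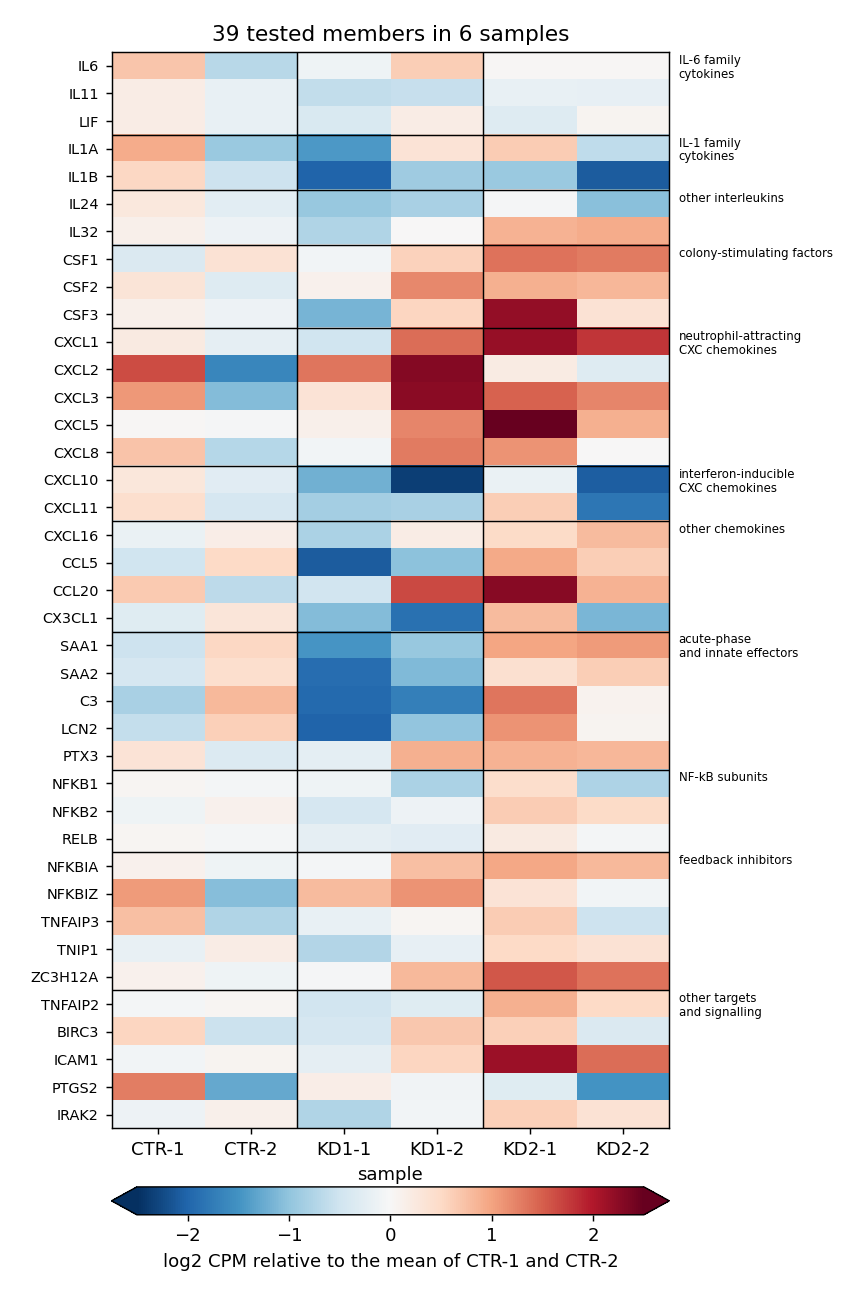
Heat map of the 39 tested members in the 6 samples, as log2 CPM relative to the mean of CTR-1 and CTR-2, grouped by role; red is above and blue below the control mean, and the colours end at -2.5 and 2.5. The acute-phase rows SAA1, SAA2, C3 and LCN2 are blue in both KD1 samples. The rows of ICAM1, ZC3H12A and CSF1 are each redder in both KD2 samples than in the other samples.

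Among the IL-6 family, IL6 itself had 635 and 243 CPM in CTR-1 and CTR-2, 364 and 602 in KD1-1 and KD1-2, and 401 and 402 in KD2-1 and KD2-2. The 4 knockdown samples all lay between the 2 controls, and the log2FC of the knockdown was 0.00 with a 95% interval from -0.83 to 0.84. IL11, a cytokine linked to bone metastasis, had 128 and 100 CPM in the controls, 74.4 and 76.1 with sh-MIR100HG-1, and 99.2 and 98.2 with sh-MIR100HG-2. The groups did not overlap, but the KD2 samples lay only just under CTR-2. The log2FC of IL11 was -0.60 (SE 0.21) for the first shRNA and -0.21 (SE 0.21) for the second. LIF, which acts through the same signalling chain gp130, ranged from 100 to 150 CPM over the 6 samples with no separation of groups.

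IL1B stood lower with either shRNA. This cytokine, which activates NF-kB through the IL-1 receptor, had 30.7 and 14.9 CPM in the controls, 5.24 and 11.5 in KD1-1 and KD1-2, and 11.2 and 4.97 in KD2-1 and KD2-2. All 4 knockdown samples were below both controls, although the highest of them was close to CTR-2. The log2FC was -1.47 (SE 0.44) for the knockdown, with an adjusted p of 0.521 in edgeR, and an exact permutation test over the 15 splits gave p = 0.133, where the smallest possible is 0.0667. IL1A, its relative, ranged from 6.04 to 31.6 CPM, with controls of 31.6 and 8.55, and the groups overlapped. IL24, a cytokine of the IL-10 family, had 26.9 and 18.5 CPM in the controls, 11.6 and 12.7 with sh-MIR100HG-1, and 21.7 and 10.8 with sh-MIR100HG-2. Its KD1 samples lay below both controls, while KD2-1 lay between them. IL32, which promotes the production of other cytokines, had 49.0 and 41.3 CPM in the controls, 26.8 and 45.1 with sh-MIR100HG-1, and 82.3 and 85.8 with sh-MIR100HG-2. Only the KD2 samples stood apart, with a log2FC of 1.23 (SE 0.28) against sh-MIR100HG-1.

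The colony-stimulating factors direct the growth and maturation of myeloid cells. CSF1, the macrophage growth factor, had 463 and 762 CPM in the controls, 569 and 887 in the KD1 samples, and 1519 and 1462 in the KD2 samples. With sh-MIR100HG-2 it was about 2.43-fold the control (log2FC 1.28, SE 0.30), and the KD1 samples overlapped with the controls. CSF2 had 119 and 75.1 CPM in the controls, 103 and 216 with sh-MIR100HG-1, and 175 and 167 with sh-MIR100HG-2. KD1-1 was the single knockdown sample that did not exceed CTR-1, and the log2FC of the knockdown was 0.77 (SE 0.32). CSF3, the granulocyte growth factor, had 27.6 and 23.1 CPM in the controls, 11.3 and 36.9 in the KD1 samples, and 116 and 32.7 in the KD2 samples. Its higher mean with sh-MIR100HG-2 came mostly from KD2-1, which was 3.56-fold KD2-2.

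CXCL1, CXCL2, CXCL3, CXCL5, CXCL6 and CXCL8 bind CXCR2 on neutrophils, and their genes lie in a cluster on chromosome 4. On GRCh37, CXCL1 spans bases 74735110 to 74736959 and CXCL2 bases 74962752 to 74965010. CXCL1 had 62.8 and 45.8 CPM in the controls, 38.2 and 142 in KD1-1 and KD1-2, and 244 and 185 in KD2-1 and KD2-2. CXCL2 had 185 and 19.3 CPM in the controls, 152 and 293 in the KD1 samples, and 69.5 and 47.5 in the KD2 samples. These near-identical genes thus went opposite ways between the shRNAs: the direct log2FC, positive where sh-MIR100HG-2 was higher, was 1.25 (SE 0.52) for CXCL1 and -1.93 (SE 0.83) for CXCL2. The control of CXCL2 spanned the whole range of the KD2 samples, since CTR-1 was 9.61-fold CTR-2. CXCL3 ranged from 5.74 to 59.8 CPM with the same order of the controls, CTR-1 over CTR-2. Reads shared between these paralogs could be assigned to either, and their handling is not given in the sources used here.

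CXCL8 had 536 and 201 CPM in the controls, 312 and 808 with sh-MIR100HG-1, and 713 and 331 with sh-MIR100HG-2. No group stood apart, and the log2FC of the knockdown was 0.55 with a 95% interval from -0.61 to 1.72. CXCL5 was barely present, with 4 counts in each control, 6 and 14 in the KD1 samples, and 66 and 12 in the KD2 samples. It was the gene with the largest log2FC of the knockdown (2.50, SE 0.99), and KD2-1 alone held most of its counts.

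**Figure D4:**
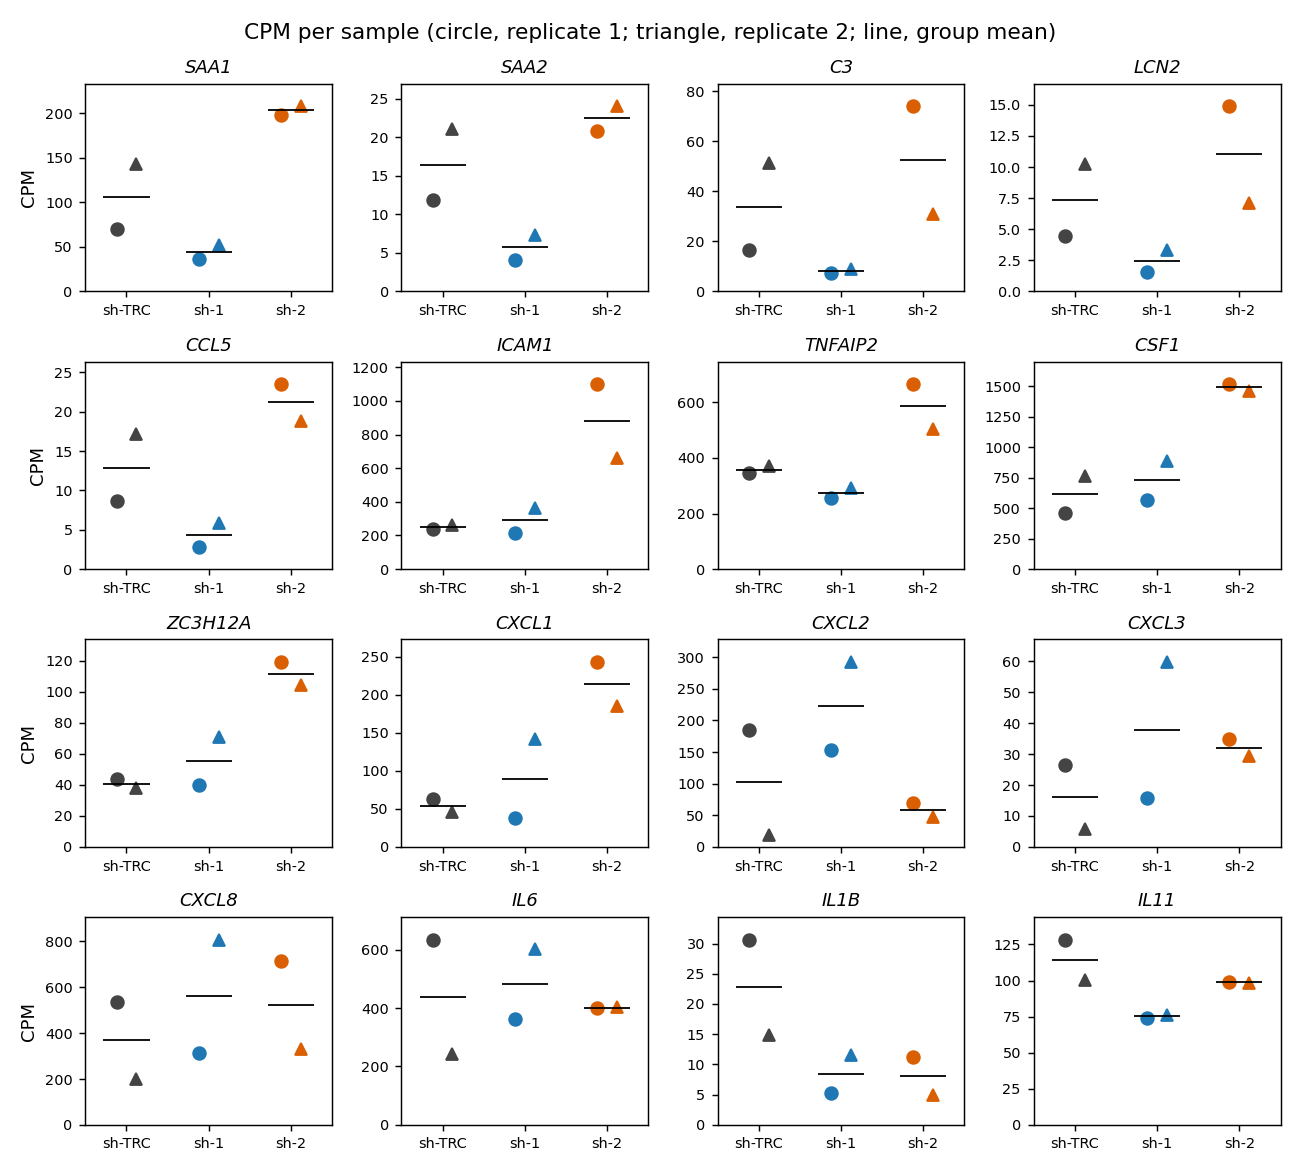
CPM of 16 members in each sample, on linear axes that start at 0, with circles for replicate 1, triangles for replicate 2 and a line at the group mean (sh-1 and sh-2 stand for sh-MIR100HG-1 and sh-MIR100HG-2). SAA1 shows 3 separate levels, with group means of 106, 43.9 and 203 CPM, while the controls of CXCL2 lie at 185 and 19.3 CPM.

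CXCL10 and CXCL11, ligands of CXCR3 on T cells, respond to interferon as well as to NF-kB. CXCL10 had 18.2 and 12.3 CPM in the controls, 6.43 and 2.83 with sh-MIR100HG-1, and 13.2 and 3.48 with sh-MIR100HG-2. KD2-1 alone reached the level of the controls, and the log2FC was -1.71 (SE 0.63) for the first shRNA and -0.87 (SE 0.61) for the second. CXCL11 ranged from 7.41 CPM in KD2-2 to 40.3 in KD2-1, so 1 group held both the lowest and the highest sample.

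Of the 4 other chemokines tested, 3 were higher with sh-MIR100HG-2 than with sh-MIR100HG-1 at an unadjusted p under 0.05. These were CCL5, CX3CL1 and CXCL16 (75%, against 3.34% of all genes). CCL5, which recruits T cells and monocytes, had 8.60 and 17.2 CPM in the controls, 2.79 and 5.88 with sh-MIR100HG-1, and 23.5 and 18.8 with sh-MIR100HG-2. The 3 groups did not overlap, with the control in the middle, and sh-MIR100HG-2 was 4.91-fold sh-MIR100HG-1 (log2FC 2.30, SE 0.46, adjusted p of 0.509 in edgeR). CX3CL1, a membrane-bound chemokine, had 23.2 and 35.6 CPM in the controls, 13.5 and 7.75 in the KD1 samples, and 49.9 and 12.9 in KD2-1 and KD2-2. Its KD1 samples lay below both controls, whereas the KD2 samples fell on either side of them, and KD2-2 lay under KD1-1. CXCL16 had 5.90 and 7.37 CPM in the controls, 3.78 and 7.53 with sh-MIR100HG-1, and 9.19 and 11.5 with sh-MIR100HG-2, where both samples exceeded all others. CCL20 ranged from 4.57 to 35.9 CPM and the groups overlapped. CCL2 was too low to be tested, with 8 and 14 counts in the controls and 2, 2, 2 and 0 in the 4 knockdown samples, all below the controls.

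The acute-phase and innate effector genes had a median log2FC of 2.17 in the direct comparison of the shRNAs. SAA1 had 70.2 and 143 CPM in CTR-1 and CTR-2, 36.1 and 51.6 in KD1-1 and KD1-2, and 198 and 209 in KD2-1 and KD2-2. The control again lay in the middle without overlap, and sh-MIR100HG-2 was 4.64-fold sh-MIR100HG-1 (log2FC 2.21, SE 0.35, adjusted p of 0.509 in edgeR). SAA2, its neighbour on chromosome 11, had 11.8 and 21.1 CPM in the controls, 4.10 and 7.27 in the KD1 samples, and 20.8 and 24.1 in the KD2 samples. Here KD2-1 lay just under CTR-2 and KD2-2 above it. SAA1 and SAA2 are close paralogs, so that their counts may share reads.

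C3, the central component of complement, had 16.5 and 51.2 CPM in the controls, 7.48 and 8.76 with sh-MIR100HG-1, and 74.1 and 30.9 with sh-MIR100HG-2. LCN2, which binds bacterial siderophores, had 4.41 and 10.3 CPM in the controls, 1.58 and 3.33 in the KD1 samples, and 14.9 and 7.11 in the KD2 samples. For both genes the KD1 samples were the lowest and the KD2 samples overlapped with the controls. The log2FC between the shRNAs was 2.69 (SE 0.58) for C3 and 2.17 (SE 0.57) for LCN2. Of the 5 genes in this group, SAA1, SAA2, C3 and LCN2 were lower with sh-MIR100HG-1 at an unadjusted p under 0.05 (3.77% of all genes). These 4 were also higher with sh-MIR100HG-2 in the direct comparison (3.34% of all genes), which uses the same KD1 samples. PTX3, a pentraxin that opsonises pathogens, was the exception and ranged from 178 to 424 CPM.

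Of the 3 NF-kB subunit genes, NFKB2 was higher with sh-MIR100HG-2 than with sh-MIR100HG-1 at an unadjusted p under 0.05 (33.3%, against 3.34% of all genes). NFKB2, which encodes the p100 precursor of the non-canonical pathway, had 256 and 301 CPM in the controls, 206 and 254 in the KD1 samples, and 433 and 386 in the KD2 samples. Its 3 groups did not overlap, although KD1-2 and CTR-1 were almost level, and the log2FC between the shRNAs was 0.83 (SE 0.22). RELB, the partner of p52, ranged from 72.6 to 103 CPM and NFKB1, the p105 precursor, from 65.5 to 155 CPM. Neither reached an unadjusted p under 0.05 in any of the 4 comparisons.

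The genes of feedback inhibitors and IkB proteins split. NFKBIA, which encodes IkB-alpha, had 283 and 244 CPM in the controls, 253 and 443 with sh-MIR100HG-1, and 516 and 458 with sh-MIR100HG-2. The KD2 samples exceeded all others and KD1-1 lay between the controls. ZC3H12A, an RNase that degrades cytokine mRNAs, had 43.7 and 37.8 CPM in the controls, 40.0 and 71.0 in the KD1 samples, and 119 and 104 in the KD2 samples. It had the lowest p of the 39 genes in the knockdown comparison, with a log2FC of 0.95 (SE 0.26), and was 2.74-fold the control with sh-MIR100HG-2. TNIP1, an adaptor of the deubiquitinase A20, had 636 and 819 CPM in the controls, 436 and 628 with sh-MIR100HG-1, and 1015 and 925 with sh-MIR100HG-2. KD1-2 and CTR-1 were nearly level, and the log2FC between the shRNAs was 0.87 (SE 0.25). TNFAIP3, which encodes A20, ranged from 54.3 to 156 CPM and NFKBIZ, an atypical nuclear IkB protein, from 58.6 to 268 CPM, with controls at both ends of the range for TNFAIP3.

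Among the remaining genes, ICAM1, the endothelial and epithelial ligand of leukocyte integrins, had 239 and 265 CPM in the controls, 215 and 363 in KD1-1 and KD1-2, and 1102 and 662 in KD2-1 and KD2-2. With sh-MIR100HG-2 it was 3.50-fold the control (log2FC 1.81, SE 0.33, adjusted p of 0.396 in edgeR), and the KD1 samples lay on both sides of the controls. TNFAIP2 had 344 and 372 CPM in the controls, 256 and 292 with sh-MIR100HG-1, and 667 and 506 with sh-MIR100HG-2. Its 3 groups did not overlap, and the log2FC between the shRNAs was 1.10 (SE 0.22). IRAK2, a kinase-related adaptor of the IL-1 receptor, had 58.0 and 69.4 CPM in the controls, 37.8 and 60.9 with sh-MIR100HG-1, and 95.4 and 81.4 with sh-MIR100HG-2, where both samples were above all others. BIRC3, an inhibitor of apoptosis, ranged from 161 to 372 CPM and PTGS2, which encodes cyclooxygenase-2, from 12.6 to 86.7 CPM, and both overlapped between groups.

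Both KD1 samples lay beyond the controls in one direction and both KD2 samples in the other for CCL5, SAA1, NFKB2, TNIP1 and TNFAIP2, 5 of the 39 genes (12.8%). Over all genes tested this held for 299 (1.95%).

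These genes differed more between replicates of the same group than genes in general. CTR-2 and CTR-1 were over 2-fold apart for 14 of the 39 genes (35.9%), against 7.91% of all genes tested. KD1-2 and KD1-1 were so for 14 (35.9%, against 8.22%), and KD2-2 and KD2-1 for 15 (38.5%, against 10.6%). The differences had a common direction within a group: of these genes CTR-2 was the lower sample for 11 and the higher for 3, KD1-2 was the higher for 13 and the lower for 1, and KD2-2 was the lower for all 15. Between the controls CXCL2 differed 9.61-fold, PTGS2 5.86-fold, CXCL3 4.63-fold, NFKBIZ 4.40-fold and IL1A 3.70-fold, and all 5 were higher in CTR-1. C3, LCN2 and SAA1 were instead 3.10-fold, 2.33-fold and 2.03-fold higher in CTR-2. The part of this spread in the differences between groups was not tested.

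**Figure D5:**
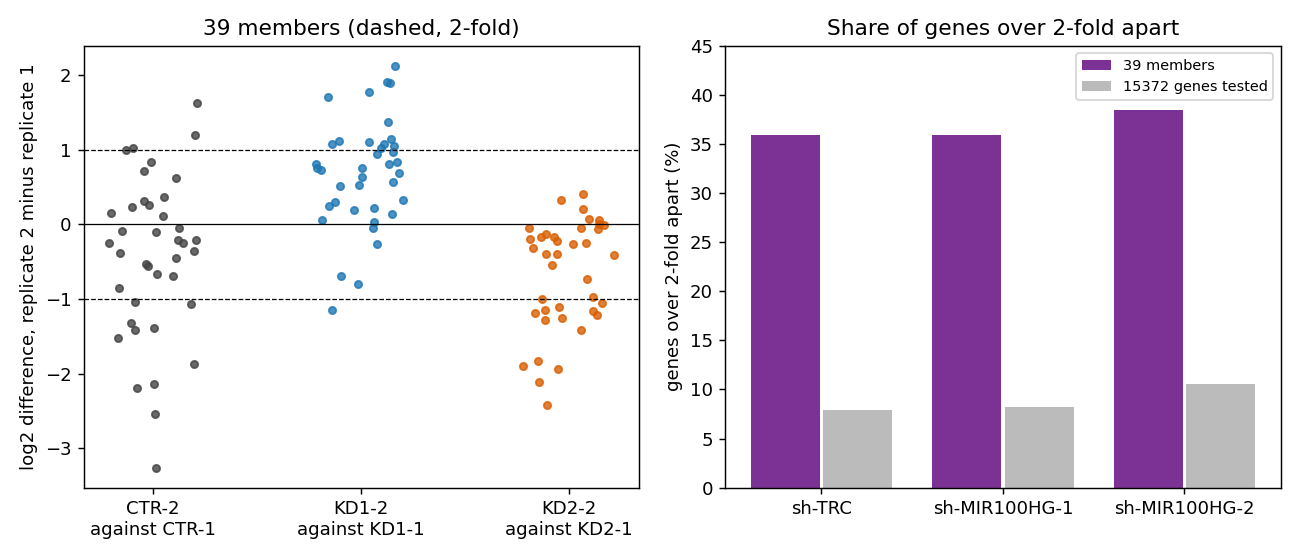
Left, the log2 difference of replicate 2 minus replicate 1 for each of the 39 members in each group, with dashed lines at 2-fold; right, the percentage of genes over 2-fold apart, in purple for the 39 members and in grey for the 15372 genes tested. The purple bars stand at 35.9, 35.9 and 38.5% and the grey bars at 7.91, 8.22 and 10.6%, and most points lie above 0 for sh-MIR100HG-1 and below 0 for sh-MIR100HG-2.

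The pathway upstream of these genes was looked at through lists of its components, whose counts at an unadjusted p under 0.05 stand against 3.23% of all genes higher and 4.44% lower in the knockdown. Of 12 receptors tested, 1 was higher and 0 were lower in the knockdown at an unadjusted p under 0.05, namely the lipopolysaccharide receptor TLR4 (log2FC 0.52, SE 0.22). Of 16 adaptors and ubiquitin ligases 0 were higher and 1 was lower, the adaptor TRADD (log2FC -0.64, SE 0.24). Of 9 kinases 0 were higher and 0 were lower, and of 12 further subunits and inhibitors 1 was higher, TNIP2 (log2FC 0.47, SE 0.20), with 0 lower. With sh-MIR100HG-1 alone more of the components other than receptors were lower, against 3.77% of all genes. NFKBIB, NFKBIE and OTULIN were lower among the 12 subunits and inhibitors (25%). MYD88 and TRADD were lower among the 16 adaptors and ligases (12.5%), and MAP3K14 among the 9 kinases (11.1%). In these lists 0 were higher. Of the 12 receptors 1 was higher, again TLR4 (log2FC 0.61, SE 0.24), and 0 were lower (8.33% higher, against 3.1% of all genes). With sh-MIR100HG-2, 2 of the 12 receptors were higher (16.7%, against 3.71% of all genes) and 0 were lower. These were TNFRSF1B (log2FC 1.14, SE 0.28) and TLR2 (log2FC 0.79, SE 0.33). Of the 12 subunits and inhibitors 1 was higher (8.33%) and 0 were lower, and the adaptors, ligases and kinases had 0 either way. RELA, the transactivating subunit, ranged from 159 to 263 CPM. Of 25 further NF-kB targets 0 were higher and 2 were lower in the knockdown, the cytokines IL18 (log2FC -0.79, SE 0.27) and CCL26 (log2FC -0.72, SE 0.31). With sh-MIR100HG-1, 0 of these 25 were higher and 2 were lower (8%, against 3.77% of all genes). With sh-MIR100HG-2, 5 were higher (20%, against 3.71%) and 2 were lower (8%, against 5.15%). In the direct comparison of the shRNAs 9 of the 25 were higher (36%, against 3.34% of all genes) and 1 was lower (4%, against 6.12%). Their median log2FC there was 0.68. TNF, a main inducer of the pathway, stayed between 0.931 and 4.06 CPM.

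Of 11 cytokine receptors tested, 1 was higher in the knockdown (9.09%, against 3.23% of all genes) and 0 were lower. This was IL6R, the ligand-binding chain of the IL-6 receptor, with 4.37 and 2.53 CPM in the controls, 10.9 and 10.8 in the KD1 samples, and 16.7 and 16.4 in the KD2 samples. All 4 knockdown samples were above both controls, while IL6 itself did not separate, and the log2FC was 1.96 (SE 0.30). The adjusted p of IL6R was 0.381 in edgeR's quasi-likelihood test, 0.00013 in its likelihood ratio test and 9.5e-08 in DESeq2. IL6ST, the shared signalling chain, had 605 and 253 CPM in CTR-1 and CTR-2 and 285 to 817 CPM in the knockdown samples.

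Interferon-stimulated genes differed between the shRNAs, and most had a negative log2FC in the knockdown. Their list had 19 genes tested. In the comparison of both shRNAs with control, 18 of them had a negative log2FC (median -0.53). In that comparison 4 were lower at an unadjusted p under 0.05 (21.1%, against 4.44% of all genes) and 0 were higher. All 4 knockdown samples lay below both controls for ISG15 and IFIH1 (10.5%, against 9.08%). With sh-MIR100HG-1, 13 of the 19 were lower at an unadjusted p under 0.05 (68.4%, against 3.77% of all genes) and 0 were higher (median log2FC -1.09). With sh-MIR100HG-2, 1 was higher (5.26%, against 3.71%) and 1 was lower (5.26%, against 5.15%), with a median of 0.01. Against sh-MIR100HG-1, 11 were higher with sh-MIR100HG-2 (57.9%, against 3.34%) and 0 were lower (median 1.46). Their summed level was 5129 and 6030 CPM in the controls, 3454 and 2858 in the KD1 samples, and 6086 and 3816 in the KD2 samples, and none of the 19 was at 0. The sum hides differences between the controls. CTR-1 and CTR-2 had 98.1 and 363 CPM for MX1, 39.6 and 190 for OAS1, and 52.2 and 242 for IFI6. IFIT1 went the other way, with 794 and 469. For OAS1, KD1-2 (40.4 CPM) lay above CTR-1. The part of these list differences in the values of CXCL10, CXCL11, CCL5 and the acute-phase genes was not tested. The 8 leukocyte markers summed to between 176 and 260 CPM, of which CD68 held 163 to 254.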

How the data were processed

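RNA-seq of MDA-MB-231 cells in 3 groups of 2 replicates was analysed from the counts per gene as the authors deposited them, with no normalization applied. By the methods the authors mapped reads to GRCh37 with STAR and a lifted GENCODE annotation and counted exons grouped into genes with featureCounts; strand and multi-mapping settings are not given in the sources used here. The members and gene lists were chosen with earlier results of these data known. Of 27745 genes, 26942 were given a symbol, 12373 with fewer than 5 counts in at least 3 samples were removed, and 15372 were tested, among them 39 of the 42 members. TMM normalization and the quasi-likelihood test of edgeR 4.0.16 (R 4.3.3; 3 residual degrees of freedom, common biological coefficient of variation 27.8%) were used on all 6 samples, with Benjamini-Hochberg adjustment over all genes. Genes listed at an unadjusted p are descriptions. CPM values on the log2 scale have a pseudocount of 0.125. Per-sample values were given for members at an unadjusted p under 0.05 in any comparison, for those with the 4 knockdown samples beyond both controls, and for the 5 highest per length in the control. Alternatives were the likelihood ratio test, DESeq2 1.42.0, a bias-adjusted fit, RLE size factors, no filter on low counts, a replicate block, and leaving out each sample. The fit was tested on simulated data. Replicates of a group differed beyond sampling noise, so each counted as 1 sample. Promoter windows are from RefSeq.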

Additional observations from a re-analysis of the deposited data

Results flagged for a closer look

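For 5 genes both samples of sh-MIR100HG-1 lay beyond the controls on one side and both samples of sh-MIR100HG-2 on the other. These were 12.8% of the tested members, against 1.95% of all genes tested. The direct log2FC between the shRNAs, positive where sh-MIR100HG-2 was higher, came to 2.30 for CCL5, 2.21 for SAA1, 1.10 for TNFAIP2, 0.87 for TNIP1 and 0.83 for NFKB2, each with an adjusted p of 0.509 in edgeR's quasi-likelihood test. Against control, CCL5 had a log2FC of -1.58 for the first and 0.72 for the second shRNA, and SAA1 had -1.28 and 0.93. TNFAIP2 had -0.39 and 0.71, TNIP1 had -0.45 and 0.42, and NFKB2 had -0.28 and 0.55. For these genes the sh-MIR100HG-1 values (SE 0.22, 0.25 and 0.21) did not reach an unadjusted p under 0.05 in edgeR's quasi-likelihood test. A fall with that shRNA was thus not established for TNFAIP2, TNIP1 and NFKB2. With sh-MIR100HG-2 the higher values of CCL5 (SE 0.44) and TNIP1 (SE 0.25) did not reach that threshold either. None of the 5 genes was called against control with either shRNA in that test. Opposite movement was therefore not established for any of them. The comparisons with control share the 2 control samples, and MIR100HG itself had a log2FC of -1.82 and -1.90.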

How the results depend on the processing

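The count of members called was 0 in all 4 comparisons with the bias-adjusted fit, RLE size factors, the replicate block and each sample left out. Without the filter on low counts it was 9 for the knockdown, 10 for sh-MIR100HG-1, 12 for sh-MIR100HG-2 and 16 between the shRNAs, where 392, 227, 517 and 679 of 21349 genes were called, and the counts at an unadjusted p under 0.05 were then 21, 18 and 22 in the 3 comparisons with control, against 9, 10 and 12, of which 12, 7 and 18 were higher, against 7, 0 and 11. DESeq2 called 2 members for sh-MIR100HG-1, 4 for sh-MIR100HG-2 and 8 between the shRNAs, where it called 66, 167 and 103 of 15372 genes, and the likelihood ratio test 4 and 8 in the last 2 of these, where it called 121 and 91 genes; the cause was not tested. With each sample left out, the counts at an unadjusted p under 0.05 ranged from 5 to 12 for the knockdown, 6 to 13 for sh-MIR100HG-1, 10 to 15 for sh-MIR100HG-2 and 11 to 21 between the shRNAs. The log2FC of IL6 in the knockdown, 0.00, ranged from -0.53 to 0.86 with each sample left out, and was -0.53 without CTR-2, -0.20 without KD1-2 and 0.86 without CTR-1. No other of the 54 single-gene values recomputed changed sign. IL6, CXCL8, IL6R and MIR100HG were recomputed by name. The rest were members at an unadjusted p under 0.05 in the main fit, or beyond both controls in the knockdown. They were thus picked for lying away from 0 in the same samples, so their stable signs say little about the other members. The labels give no shared origin for equal replicate numbers, and the numbers were not used to pair the samples in the main fit. Deviations of equally numbered samples correlated at -0.21 and 0.02 between the control and each shRNA and at 0.50 between the shRNAs. A replicate effect shared by the shRNA groups alone was not tested. With the replicate block 0 members were called, and 6 were higher and 3 lower at an unadjusted p under 0.05 in the knockdown, 0 and 10 for the first shRNA, 10 and 2 for the second, and 16 and 1 between the shRNAs, where the members' median log2FC was 0.64 in place of 0.81. Counting limits CXCL5, CCL2, CXCL6 and IL33.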
